A study of Mus musculus with 2 samples.

Results

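The myosin folding chaperone genes Unc45b, Unc45a, Smyd1, Hsp90aa1 and Hsp90ab1 were taken by symbol from the transcript annotation and joined by gene identifier to the gene and transcript measurements, which gave 5 of 55536 annotated genes. Total RNA was measured in the gastrocnemius, the large superficial calf muscle, of male B6CASTF1/J mice, a first-generation hybrid strain, at 4 days of age. There was 1 group of 2 libraries, listed as biological replicates 1 and 2, and the labels give no transgene, deletion or treatment for either. The labels give the animals separate numbers but list 1 donor identifier for both libraries. The input was 300 ng of RNA per library, and ERCC spike-ins were added to each.

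The motor domain of a muscle myosin does not reach its folded state unaided. Unc45 proteins hold the myosin head through a UCS domain and recruit Hsp90 through a TPR domain, so that the client and the general chaperone meet on one cochaperone. The gene family was first described from paralysed unc-45 mutants of Caenorhabditis elegans, and in vertebrates Unc45b is the form of striated muscle while Unc45a is found in most tissues. Smyd1 is a methyltransferase of heart and skeletal muscle with a SET and a MYND domain. In zebrafish its loss, like the loss of Unc45b or of the muscle Hsp90, leaves muscle fibres without ordered thick filaments. Hsp90aa1 and Hsp90ab1 encode both cytosolic forms of Hsp90, the stress-inducible and the constitutive one.

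Unc45 and other TPR cochaperones bind Hsp90 at its extreme C terminus, and both genes encode such an end. The last 48 coding bases, stop codon included, are shown with the last 5 sense codons in capitals, from GENCODE M21 transcripts on mm10. They lie on the minus strand at chr12:110691540-110691587 for Hsp90aa1 and at chr17:45568015-45568062 for Hsp90ab1.

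Hsp90aa1-201: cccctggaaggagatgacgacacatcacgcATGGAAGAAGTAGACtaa

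Hsp90ab1-201: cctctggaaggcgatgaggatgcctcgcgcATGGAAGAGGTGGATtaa

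The paired genes are related but distinct in sequence. The coding sequence of Unc45b-201 has 929 sense codons and that of Unc45a-201 has 944, and 72.7% of 2666 aligned bases are identical. Hsp90aa1-201 has 733 sense codons and Hsp90ab1-201 has 724, with 77.5% of 2166 aligned bases identical. The longest run of bases shared by the full transcripts, untranslated parts included and at any offset, was 26 for the Unc45 pair and 33 for the Hsp90 pair.

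Library totals in annotated genes were 35281187 expected counts in replicate 1 and 32301531 in replicate 2. All 7 skeletal muscle markers examined (Acta1, Ckm, Mylpf, Tnnt3, Ryr1, Myh8 and Des) were above 1 TPM, a level scaled by both transcript length and library depth, in replicate 1 and in replicate 2, and together they summed to 40798 TPM in replicate 1 and 37810 TPM in replicate 2. The markers of heart muscle were low or at 0 apart from Myh6, with Nppa at 0 counts in both libraries. Replicate 2 stood apart in its epidermis markers: all 6 (Krt1, Krt10, Krt5, Krt14, Krtdap and Lor) were more than 1.5-fold higher there, with sums of 9.60 TPM in replicate 1 and 746 TPM in replicate 2. Red cell markers summed to 471 and 543 TPM in replicates 1 and 2, and fibroblast markers to 5036 and 4981 TPM. In whole tissue, fewer cells of a type and less RNA per cell cannot be told apart. The study had no second group, which leaves comparisons of genes inside a library and of one animal with the other. The smallest p that an exact sign-flip test could reach with 2 libraries is 0.5, and p-values were therefore not computed. Errors are SD over the libraries (n = 2), and they may be technical as well as biological.

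All 5 genes were expressed in both libraries at 1 TPM or more, as were 24.5% of all annotated genes and 55.2% of the 22015 nuclear protein-coding genes. Hsp90ab1 led by a wide margin, Smyd1, Hsp90aa1 and Unc45b formed a middle range, and Unc45a was lowest. The replicates of Unc45a lay below those of every other member, and the replicates of Hsp90ab1 lay above them all.

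The muscle form of Unc45 exceeded the general form in both animals. Unc45b (ENSMUSG00000018845.14, chr11:82910550-82943403, plus strand, mm10) had 47.0 TPM in replicate 1 and 43.7 TPM in replicate 2. Unc45a (ENSMUSG00000030533.15, chr7:80325292-80341005, minus strand) had 7.52 TPM in replicate 1 and 7.77 TPM in replicate 2. The lower Unc45b value stood well above the higher Unc45a value. On the log2 scale of TPM plus 0.1 the difference, Unc45b over Unc45a, was 2.63 in replicate 1 and 2.48 in replicate 2, a mean of 2.55 ± 0.11, or 5.86-fold. Among nuclear protein-coding genes ranked by mean TPM, Unc45b stood at 1455, with 93.4% of genes lower, and Unc45a at 7565, with 65.6% lower. Unc45a rested on 552 and 540 expected counts in replicates 1 and 2, against 4580 and 4020 for Unc45b, so its level carries the larger counting error.

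Smyd1 (ENSMUSG00000055027.17, chr6:71213940-71322233, minus strand), the muscle methyltransferase, had 62.3 TPM in replicate 1 and 66.5 TPM in replicate 2. It exceeded Unc45b in both animals by a mean of 0.51 ± 0.14 on the log2 scale of TPM, or 1.42-fold. Its excess over the next gene of its family depended on how transcripts were counted. Smyd2, a broadly expressed relative that methylates Hsp90 among other proteins, had 58.5 TPM in replicate 1 and 55.3 TPM in replicate 2. The log2 difference of Smyd1 over Smyd2 was 0.09 in replicate 1 and 0.26 in replicate 2, a mean of 0.18 ± 0.12, close to the spread between the animals. It was 0.66 ± 0.10 when only protein-coding transcripts were summed and 1.32 ± 0.08 from counts not divided by length, both beyond that spread. The other Smyd genes were low, with Smyd5 at 9.19 ± 0.523 TPM, Smyd4 at 4.13 ± 0.629 TPM and Smyd3 at 3.09 ± 0.120 TPM (SD, n = 2 each).

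Of the cytosolic Hsp90 genes, the constitutive one dominated. Hsp90aa1 (ENSMUSG00000021270.13, chr12:110690605-110702728, minus strand) had 60.0 TPM in replicate 1 and 63.2 TPM in replicate 2. Hsp90ab1 (ENSMUSG00000023944.14, chr17:45567775-45573271, minus strand) had 481 TPM in replicate 1 and 497 TPM in replicate 2. The log2 difference of Hsp90aa1 over Hsp90ab1 was -3.00 in replicate 1 and -2.97 in replicate 2, with a mean of -2.99 ± 0.02. This put Hsp90aa1 7.93-fold lower than Hsp90ab1, and the animals differed little in the ratio. Hsp90ab1 ranked 78 among nuclear protein-coding genes, above 99.6% of them, and alone made up 73.1% of the summed TPM of the 5 genes in replicate 1 and 73.3% in replicate 2. Hsp90aa1 ranked 1049, next to Smyd1 at 1001. The replicate ranges of Hsp90aa1 and Smyd1 overlapped. The log2 difference of Hsp90aa1 over Smyd1 was -0.06 ± 0.01 here but 0.12 ± 0.06 in the quantification made directly from reads. It was -0.49 ± 0.07 from protein-coding transcripts only, -0.56 ± 0.02 from counts not divided by length and 0.00 ± 0.01 from posterior mean TPM. The sign depended on the measure, so no order between them was settled.

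**Figure D1:**
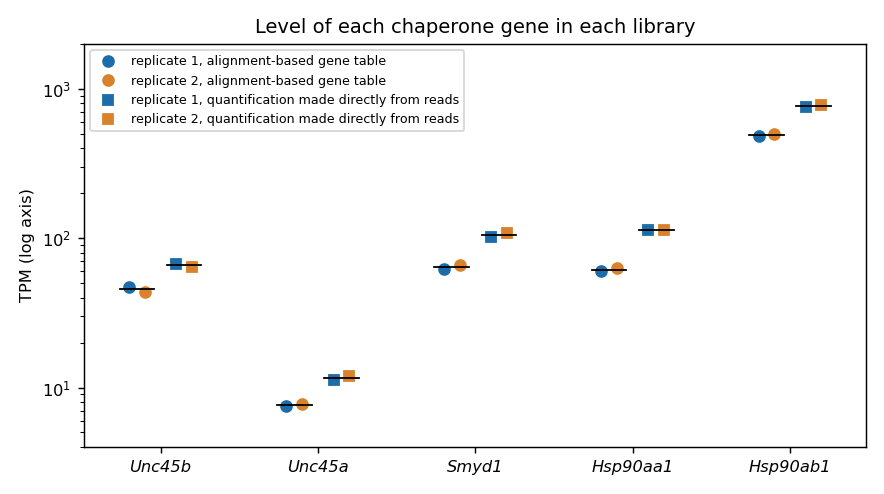
Level of each gene in TPM (log axis) in replicates 1 and 2, from the alignment-based gene measurements (circles) and from the quantification made directly from reads (squares), with the mean of both libraries as a black bar. Hsp90ab1 lies at 481 to 497 TPM and Unc45a at 7.52 to 7.77 TPM by alignment, the squares lie above the circles for every gene, and the replicates lie close together.

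The deposited quantifications of the same libraries gave different scales. In the quantification made directly from reads, Unc45b had 66.2 ± 2.16 TPM, Unc45a 11.6 ± 0.510 TPM and Smyd1 105 ± 4.24 TPM, while Hsp90aa1 had 114 ± 0.328 TPM and Hsp90ab1 772 ± 13.9 TPM (SD, n = 2 each). These were 1.46-fold to 1.84-fold above the alignment-based levels, the smallest factor being that of Unc45b and the largest that of Hsp90aa1. Nuclear protein-coding genes as a whole took 72.6% and 73.9% of TPM there in replicates 1 and 2, against 41.9% and 41.6% by alignment. The difference of Unc45b over Unc45a was 2.50 ± 0.11 on the log2 scale and that of Hsp90aa1 over Hsp90ab1 was -2.76 ± 0.03.

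The chaperones were set beside the myosins that are their clients. Transcripts of the 6 sarcomeric myosin heavy chain genes, led by the neonatal form Myh8, summed to 6469 TPM in replicate 1 and 5821 TPM in replicate 2. There were 138 TPM of sarcomeric myosin for each TPM of Unc45b in replicate 1 and 133 in replicate 2. For each TPM of Smyd1 there were 104 in replicate 1 and 87.6 in replicate 2. The ratio to Unc45b varied less between the animals (135 ± 3.28) than the ratio to Smyd1 (95.7 ± 11.5), each SD resting on 2 values. By alignment the short transcript Smyd1-206 supplied 0 TPM of Smyd1 in replicate 1 and 3.52 TPM in replicate 2, there from 31.6 counts. Directly from reads, where that transcript was at 0, the ratios were 129 ± 4.39 to Unc45b and 81.6 ± 8.74 to Smyd1. The 3 nonmuscle myosin heavy chain genes Myh9, Myh10 and Myh14, which drive contraction of the actin cortex in most cells, summed to 109 TPM in replicate 1 and 113 TPM in replicate 2. That was 14.4 TPM of nonmuscle myosin for each TPM of Unc45a in replicate 1 and 14.5 in replicate 2. The ratio of client to chaperone transcripts was higher for Unc45b than for Unc45a in both animals.

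Sequence before the transcription start is shown for the Unc45 pair, since these genes differed most among the pairs of known muscle and general form. The 250 bases before the RefSeq start (RefSeq promoters, GRCm38.p6) are printed with CG dinucleotides in capitals, for Unc45b at chr11:82911003-82911252 on the plus strand and for Unc45a at chr7:80340220-80340469 on the minus strand. Both windows lie inside the annotated gene span, which reaches further upstream, to 82910550 for Unc45b and to 80341005 for Unc45a. Sequence before other annotated starts was not examined.

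Unc45b promoter: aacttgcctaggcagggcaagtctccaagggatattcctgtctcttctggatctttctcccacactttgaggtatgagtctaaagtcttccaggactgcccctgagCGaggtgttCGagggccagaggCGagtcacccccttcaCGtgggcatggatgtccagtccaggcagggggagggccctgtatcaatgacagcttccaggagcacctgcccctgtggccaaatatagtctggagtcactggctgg

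Unc45a promoter: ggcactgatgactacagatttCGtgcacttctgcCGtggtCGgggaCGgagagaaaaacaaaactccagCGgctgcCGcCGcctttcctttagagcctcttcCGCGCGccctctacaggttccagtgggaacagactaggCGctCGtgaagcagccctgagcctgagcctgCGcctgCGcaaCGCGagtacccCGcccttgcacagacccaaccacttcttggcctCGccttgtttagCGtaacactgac

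The Unc45b window holds 4 CG dinucleotides and the Unc45a window 19, where the median of 32851 RefSeq promoters was 6. The Smyd1 window on chromosome 6 holds 2, and 18.8% of promoters hold fewer than that. The E-box letters CANNTG, searched on both strands, begin 108 and 43 bases before the start of Unc45b and are in neither the Unc45a nor the Smyd1 window, while 66.2% of all promoters hold them. The TATA box letters TATAAA were found on the opposite strand of the Smyd1 window, beginning 28 bases before the start, and 12.4% of all promoters hold them. The E-box form CAGCTG (13.0% of all promoters), the MEF2 site (2.92%), the CArG box (1.47%) and the heat shock element (0.466%) were in none of the 3 windows on either strand. CAGCTG overlaps CANNTG by construction. These are matches of letters only, before the RefSeq start of each gene. The Smyd1 window, like those of the Unc45 pair, lies inside the annotated gene span.

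Between the animals the 5 genes differed little. Log2 ratios of scaled expected counts, replicate 1 over replicate 2, were 0.11 for Unc45b and -0.05 for Unc45a, with scaled levels of 132 and 123 CPM for Unc45b and 15.9 and 16.5 CPM for Unc45a in replicates 1 and 2. The ratio was -0.01 for Smyd1, 0.02 for Hsp90aa1 and 0.02 for Hsp90ab1. Of the 5 genes, 0 passed a 1.5-fold difference in either direction, where 3.99% of the 12421 genes whose mean count reached 100 did, and the absence of 5 genes from so small a share says little about them. The median size of the log2 ratio over all these genes was 0.13, above the size for each of the 5. Under the main scaling, the exact 95% interval from counting error alone (Clopper-Pearson) was 0.04 to 0.17 for Unc45b. It included 0 for the other genes, with the widest, -0.22 to 0.12, for Unc45a. No such interval was computed under the alternative scalings. Unc45b was higher in replicate 1, by 0.03 to 0.13 over the alternative scalings and counts, as were all 7 skeletal muscle markers, with a median log2 ratio of 0.14, and the part of muscle content in that difference was not tested. Under scaling by the ERCC spike-ins the signs of Hsp90aa1 and Hsp90ab1 turned to -0.06 and -0.06, and under DESeq2 size factors that of Smyd1 turned to 0.02, so no direction is given for these 3 genes.

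**Figure D2:**
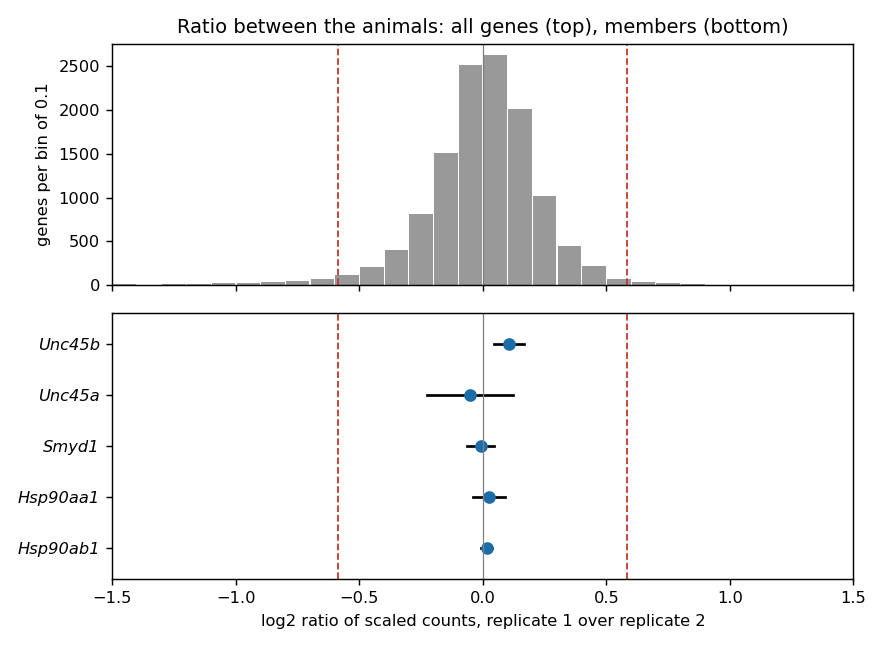
Log2 ratio of scaled counts, replicate 1 over replicate 2, for all 12421 genes whose mean count reached 100 (top, number of genes per bin of 0.1; ratios beyond the axis are not drawn) and for each of the 5 genes (bottom, point with its 95% counting interval). Red dashed lines mark a 1.5-fold difference, and all 5 points lie between -0.05 and 0.11, well inside them.

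Transcripts of Smyd1 differ by a short internal exon and by their first exon. Exon 5 of Smyd1-201 (chr6:71235343-71235381, minus strand) has 39 bases, or 13 codons, and is left out of Smyd1-202 without a change of reading frame, so the coding sequence has 1473 bases in Smyd1-201 and 1434 in Smyd1-202, stop codon included. Both junctions are shown with 30 bases on either side and exon 5 in capitals, because the split between them is the form difference that both quantifications measured.

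Smyd1-201: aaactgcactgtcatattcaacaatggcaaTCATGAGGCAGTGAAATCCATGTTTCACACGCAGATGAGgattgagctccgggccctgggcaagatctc

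Smyd1-202: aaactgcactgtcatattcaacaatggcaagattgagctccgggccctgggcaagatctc

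Smyd1-203 also includes exon 5 but begins at an upstream first exon, 59952 bases before the start of Smyd1-201. Its last exon is annotated with 568 bases, against 1970 in Smyd1-201. The gene was first described in mouse as Bop, with transcripts of muscle and of T lymphocytes that start at different promoters.

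Most Smyd1 transcripts included exon 5, and more so in replicate 1 than in replicate 2. Smyd1-201 had 42.8 TPM, 68.7% of the gene, in replicate 1 and 36.7 TPM, 55.2% of the gene, in replicate 2. Smyd1-202 had 17.6 TPM (28.2%) in replicate 1 and 24.7 TPM (37.2%) in replicate 2. The leading form was the same in both animals, but its share was 13.5 percentage points higher in replicate 1, while the log2 ratio of the whole gene was -0.01. Part of that gap lay in the short transcript Smyd1-206. It held 0% of the gene's TPM in replicate 1 and 5.30% in replicate 2, there from only 31.6 expected counts. As a share of counts, Smyd1-201 held 71.2% of the gene in replicate 1 and 59.8% in replicate 2. Of 3590 transcripts with a mean count of 1000 or more and a mean share of 5% to 95%, 6.35% moved by 10 points or more. The median movement was 2.60 points, and 97.8% of these transcripts moved less than Smyd1-201. Among the 5 genes 3 transcripts entered that set and 1, Smyd1-201, passed 10 points, while the difference, replicate 1 minus replicate 2, was -8.99 points for Smyd1-202 and 6.13 points for Hsp90aa1-201. Transcripts of 1 gene are tied to each other, so the movements of Smyd1-201 and Smyd1-202 are not separate observations.

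The share of exon 5 could be read in both quantifications. Counting Smyd1-201 and Smyd1-203 together against Smyd1-202, inclusion was 70.9% in replicate 1 and 59.8% in replicate 2 by alignment, and 71.2% and 62.2% in replicates 1 and 2 directly from reads. The means, 65.3% ± 7.88 and 66.7% ± 6.35 (SD, n = 2 each), differed by less than the spread between the animals, and the difference had the same direction in both quantifications. The quantifier's own posterior SD for Smyd1-201 was 164 of 4084 expected counts in replicate 1 and 180 of 3262 in replicate 2. Replicate 2 was also the library with high epidermis markers, and whether other tissue took part in the difference was not tested.

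The upstream first exon could not be settled. Smyd1-203 was at 0 expected counts in both libraries by alignment, with a posterior SD of 7.20 and 7.61 counts in replicates 1 and 2. Directly from reads it had 772 estimated counts and 20.2 TPM in replicate 1, and 853 estimated counts and 24.4 TPM in replicate 2, which is 19.9% and 22.6% of the gene. The transcript shares most of its exons with Smyd1-201, and reads over its own first exon were not examined. Of the other Smyd1 transcripts, the 428-base Smyd1-206 had 0 and 31.6 expected counts in replicates 1 and 2 by alignment, with a posterior SD of 21.2 counts in replicate 2, and 0 counts in both directly from reads. The remaining 2 held 3.28% or less of the gene's TPM by alignment or directly from reads. Krcc1, on the plus strand, lies within the Smyd1 locus with 942 and 802 expected counts in replicates 1 and 2. No run of 31 bases is shared between annotated transcripts of Krcc1 and Smyd1 on either strand. Whether counting used strand is not stated.

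**Figure D3:**
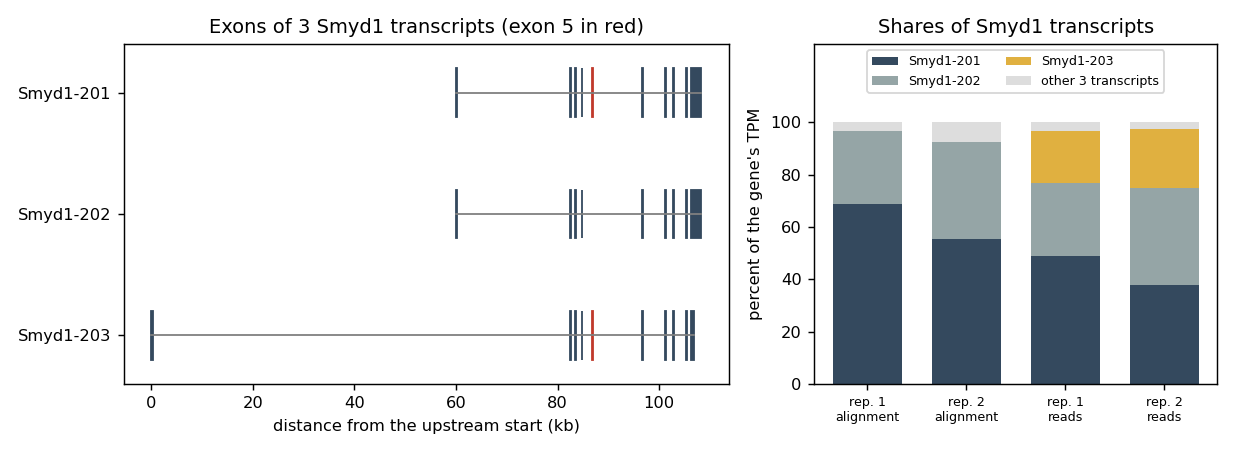
Left, exons of Smyd1-201, Smyd1-202 and Smyd1-203 placed by distance from the upstream start in kilobases, with exon 5 in red; exon outlines widen the narrowest boxes slightly. Right, percent of the gene's TPM held by each transcript in each replicate, by alignment and directly from reads: Smyd1-201 falls between 38.0% and 68.7%, Smyd1-203 is at 0 by alignment and at 19.9% and 22.6% from reads.

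Unc45b was carried by 1 main transcript by alignment and by a pair directly from reads. Unc45b-201 had 45.0 TPM, 95.9% of the gene, in replicate 1 and 42.6 TPM, 97.5%, in replicate 2. Unc45b-202 was at 0 expected counts by alignment in both libraries, but directly from reads it had 1200 and 1078 estimated counts, or 20.9% and 21.5% of the gene, in replicates 1 and 2. The transcripts differ in where they begin, with Unc45b-202 starting 703 bases upstream, and in exon 12 of Unc45b-201. That exon (chr11:82928932-82929073, plus strand) runs on for 6 bases, or 2 codons, in Unc45b-202 and in the scarce Unc45b-205. Both junctions are shown because they tell these coding forms apart, with the added bases in capitals.

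Unc45b-205: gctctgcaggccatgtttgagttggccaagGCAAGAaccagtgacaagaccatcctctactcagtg

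Unc45b-201: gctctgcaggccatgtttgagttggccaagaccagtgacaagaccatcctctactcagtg

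Directly from reads, transcripts with the longer exon held 21.02% of the TPM of Unc45b-201, Unc45b-202 and Unc45b-205 in replicate 1 and 21.74% in replicate 2. All of that was assigned to Unc45b-202, with Unc45b-205 at 0 in both libraries. Use of the added bases therefore cannot be told apart from use of the upstream start. By alignment, transcripts with the longer exon held 0.310% in replicate 1 and 0 in replicate 2. The replicates were close to each other within each quantification, so the gap lies between the methods and not between the animals. The other 3 annotated Unc45b transcripts held 3.49% or less each of TPM by alignment or directly from reads. The noncoding Unc45bos, antisense to Unc45b, had 8 and 7 expected counts in replicates 1 and 2, and Slfn5os had 0 in both.

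Unc45a showed a similar split at a far lower depth. Unc45a-201 had 5.16 TPM, 68.5% of the gene, in replicate 1 and 5.53 TPM, 71.2%, in replicate 2 by alignment, against 39.6% and 41.4% in replicates 1 and 2 directly from reads. Unc45a-202 is annotated with 1 exon more than Unc45a-201. By alignment it had 26.5 and 24.5 expected counts in replicates 1 and 2, or 3.45% and 3.22% of the gene. Directly from reads it had 274 and 260 estimated counts, or 33.1% and 32.3%. The short transcripts Unc45a-203, Unc45a-204 and Unc45a-206 reached shares of 2.52% to 13.0% by alignment, on 3.76 to 23.1 expected counts each. Directly from reads Unc45a-204 held 18.2% and 6.42% and Unc45a-206 held 5.44% and 10.2% in replicates 1 and 2, on 5.73 to 25.5 estimated counts each, and none of the 3 can be compared between animals at that depth. The other 5 annotated transcripts held 4.50% or less each of TPM by alignment or directly from reads.

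Hsp90aa1 was the gene of the 5 whose TPM differed most between the quantifications, and its short transcripts took different shares in them. Its counts lay closer together, 3936 and 3657 by alignment against 4053 and 3772 directly from reads in replicates 1 and 2. The main protein-coding Hsp90aa1-201 had 39.5 TPM, 65.9% of the gene, in replicate 1 and 37.8 TPM, 59.7%, in replicate 2. Hsp90aa1-202, a longer protein-coding form, held 10.8% and 11.7% in replicates 1 and 2 by alignment, against 0.883% and 0.715% directly from reads. The retained-intron transcript Hsp90aa1-205, with 487 bases, held 19.7% and 23.3% of TPM from 134 and 156 expected counts in replicates 1 and 2. All retained-intron transcripts of the gene together held 23.4% and 27.4% of its TPM but 3.83% and 4.81% of its counts, because a count weighs more in TPM on a short transcript. Directly from reads Hsp90aa1-205 had only 3.34 and 4.94 estimated counts, and the 481-base Hsp90aa1-207 took 43.0 and 40.7 TPM from 147 and 126 estimated counts in replicates 1 and 2. With protein-coding transcripts alone, Hsp90aa1 stood at 45.9 ± 0.0778 TPM (SD, n = 2) and at -3.36 ± 0.01 on the log2 scale against Hsp90ab1.

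Reads of Hsp90aa1 can also be shared with processed pseudogenes. Of its 3971 distinct 31-base words, 1851 occur in Gm12346 on chromosome 11, which had 98.2 and 74.3 expected counts in replicates 1 and 2. Gm5844 and Gm5511 share 1499 and 337 of them, and the 3 pseudogenes together had 102 and 80.0 counts, few beside the 3936 and 3657 of Hsp90aa1. Hsp90aa1 was the only one of the 5 genes with a posterior SD above 0 at the gene level, of 12 and 11 counts in replicates 1 and 2. Hsp90ab1 shared 100 or more such words with 1 gene, Gm6368, which had 1 count in each library. Unc45b shared 227 with Unc45bos and 123 with Slfn5os, the antisense genes named above. Unc45a shared some with 1135 genes but 100 or more with none, and Smyd1 shared none with any other gene.

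Hsp90ab1 came mostly from 1 transcript. Hsp90ab1-201 had 473 TPM, 98.4% of the gene, in replicate 1 and 469 TPM, 94.4%, in replicate 2 by alignment. Directly from reads it held 87.8% in replicate 1 and 86.9% in replicate 2. Hsp90ab1-206, annotated for nonsense-mediated decay and named here after its values were seen, had 9.07 and 405 expected counts in replicates 1 and 2 by alignment, with posterior SDs of 58.8 and 77.4 counts, and 0 in both libraries directly from reads. Its difference between the animals was therefore seen in only 1 of the quantifications. The 351-base Hsp90ab1-202 had 82.4 and 92.9 TPM, or 10.8% and 11.9% of the gene, from 155 and 155 estimated counts directly from reads, against 10.6 and 0 expected counts by alignment.

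Genes that work with these chaperones were described from 11 lists of 79 distinct genes, of which 76 were at 1 TPM or more in both libraries (24.5% of all annotated genes and 55.2% of nuclear protein-coding genes were). The clients come first: 6 of 6 listed sarcomeric and 3 of 3 listed nonmuscle myosin heavy chain genes passed. Myh8 averaged 4679 ± 280 TPM, and Myh4, the adult fast form IIb, had 823 TPM in replicate 1 and 503 TPM in replicate 2. Of the 76 list genes whose mean count reached 100, 2 (2.63%) differed by more than 1.5-fold between the animals, Myh4 and Hspa1b, where 3.99% of all such genes did. Among nonmuscle forms, Myh9 averaged 71.0 ± 1.88 TPM, which is 3.20 ± 0.01 above Unc45a on the log2 scale, Myh10 28.4 ± 0.0707 TPM and Myh14 11.2 ± 0.962 TPM (SD, n = 2 each).

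Other members of the Hsp90 family lay between the cytosolic pair or below it. Hsp90b1, the form of the endoplasmic reticulum, averaged 109 ± 4.22 TPM, and Trap1, the mitochondrial form, 35.6 ± 1.07 TPM. On the log2 scale of TPM, Hsp90aa1 stood at -0.82 against Hsp90b1, while Hsp90ab1 exceeded Hsp90b1 4.49-fold. Of the Hsp90 cochaperones, 18 of 18 passed 1 TPM with a median of 29.8 ± 0.583 TPM. Their highest members were Fkbp8 (68.6 ± 3.60 TPM), a membrane-anchored immunophilin, and Cdc37 (64.1 ± 3.37 TPM), which brings kinases to Hsp90. Stip1, the TPR protein that links Hsp70 to Hsp90, averaged 50.3 ± 3.13 TPM. Unc45b, at 45.3 ± 2.28 TPM, stood close to Stip1 and to Stub1 (48.1 ± 0.912 TPM), which serve many clients.

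Of the partners reported for Unc45 and Smyd1, 4 of 4 were at 1 TPM or more. Naca, whose long muscle form binds Smyd1 in mouse, averaged 281 ± 9.52 TPM over all its transcripts, and the long form was not measured apart. Vcp, the segregase, averaged 125 ± 4.13 TPM and Ube4b, a ubiquitin ligase, 32.5 ± 4.04 TPM (SD, n = 2 each). Relatives of Vcp, Ube4b and the ligase Stub1 control the turnover of UNC-45 in Caenorhabditis elegans.

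Upstream chaperones were expressed as well. The median of nuclear protein-coding genes at 1 TPM or more in both libraries was 10.8 and 10.9 TPM in replicates 1 and 2. Of the Hsp70 family, 15 of 15 passed with a median of 12.8 ± 0.707 TPM, close to that of expressed genes. Its constitutive cytosolic member Hspa8 averaged 543 ± 1.99 TPM, and the log2 difference of Hsp90ab1 over Hspa8 was -0.15 ± 0.04 by alignment but 0.07 ± 0.01 directly from reads, so their order was not settled. Hspa5 of the endoplasmic reticulum averaged 122 ± 10.4 TPM, Hspa9 of mitochondria 97.4 ± 0.530 TPM and Hspa4, an exchange factor, 51.7 ± 1.78 TPM. The heat-inducible Hspa1b had 1.64 TPM in replicate 1 and 3.31 TPM in replicate 2. Hspa1a, its near-identical copy, had 1.79 and 2.02 TPM, and the division of reads between these copies is uncertain.

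Of the cytosolic Hsp40 genes, whose products load clients onto Hsp70, 9 of 9 passed with a median of 35.2 ± 0.764 TPM. Dnajc7 averaged 89.0 ± 12.1 TPM, Dnaja2 65.9 ± 4.55 TPM, Dnaja1 48.3 ± 2.67 TPM and Dnajb6 39.98 ± 0.205 TPM. The CCT chaperonin, which folds actin and takes part in myosin folding, had 8 of 9 genes past 1 TPM and a median of 81.4 ± 3.05 TPM. Tcp1 averaged 121 ± 3.09 TPM, Cct5 98.7 ± 6.74 TPM, Cct3 96.0 ± 2.91 TPM and Cct2 90.6 ± 1.04 TPM. The exception was Cct6b, a form best known from testis, with 4 and 5 expected counts in replicates 1 and 2. Prefoldin, which passes nascent actin and tubulin to CCT, had 6 of 6 with a median of 36.7 ± 1.59 TPM, led by Pfdn5 (136 ± 1.12 TPM), Pfdn1 (52.4 ± 3.99 TPM), Pfdn2 (42.6 ± 4.61 TPM) and Pfdn6 (30.9 ± 1.42 TPM). Of the heat shock factors, which switch on the inducible chaperone genes, Hsf1 (19.1 ± 1.20 TPM) and Hsf2 (18.5 ± 2.74 TPM) passed, while Hsf4 had 4 and 2 and Hsf5 had 8 and 4 expected counts in replicates 1 and 2, too few to compare between the animals.

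**Figure D4:**
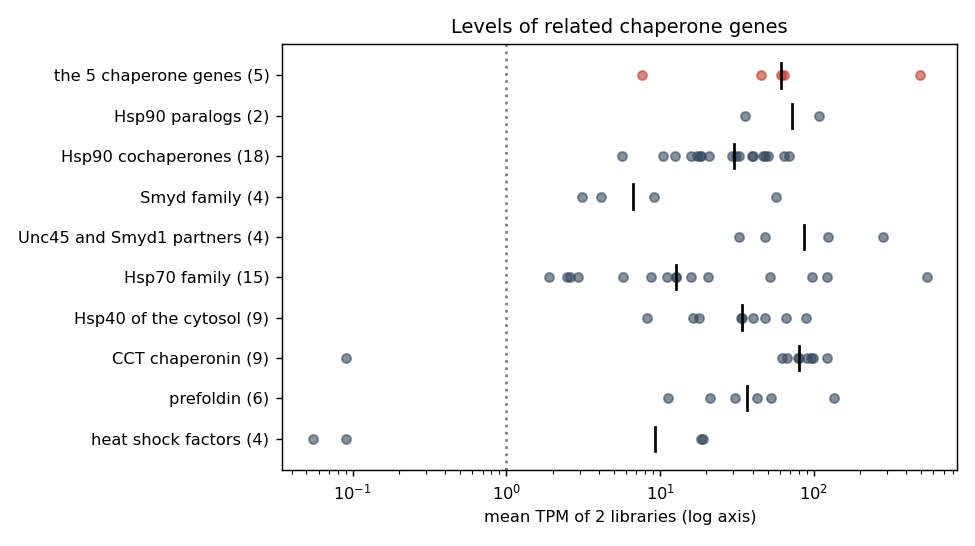
Mean TPM over both libraries (log axis) of every gene in the set of 5 and in 9 lists of related genes, 1 point per gene, with the list median as a black bar, the number of genes in brackets and a dotted line at 1 TPM. Hsp90ab1, the highest of the red points, lies beside Hspa8 of the Hsp70 family at 543 TPM, and Cct6b, Hsf4 and Hsf5 are the points left of the line.

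With 2 libraries of 1 group there is no pattern across conditions against which likeness to these genes could be measured, so no gene is named for it.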

How the data were processed

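Total RNA-seq of 2 libraries was used as deposited. Build mm10 and annotation GENCODE M21 are per the deposited notes. Aligner and quantifier, with their versions: not given in the sources used here. Per the file headers, the deposited alignment-based tables carry RSEM-style columns of expected counts and TPM, for genes and for transcripts, and the percent of its gene that a transcript holds. Another deposited table per library, with kallisto-style columns, gives estimated counts and TPM and, by the deposited notes, was made from reads without a prior alignment. The authors' tables also give posterior SDs of counts. Levels are alignment-based gene TPM, and those from reads are TPM summed per gene. Both divide by length. Shares are percent of the gene's summed transcript TPM.

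Pair differences are log2 of TPM plus 0.1 within each library, which understates differences that involve low genes, for 10 pairs. Ratios between animals used TMM scaling (edgeR 4.0.16 under R 4.3.3) of expected counts, a prior count of 0.5, and a minimum mean count of 100. Counts were rounded for counting intervals and for DESeq2 1.42.0, an alternative scaling. The ratio code was tested on simulated data. Common biological variation (edgeR) was 0.269 as a coefficient over 17998 genes. Entries named by a bare number (26248, holding 4 and 6 counts) were left out. Reads carried no molecular identifiers in these files, so intervals cover counting error only. Coding sequences were aligned globally with Biopython 1.88. This replaced a planned protein alignment, since no protein sequences were used here. Of the 5 genes, 3 had a promoter in the RefSeq table.

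The members, lists, pairs and markers were chosen with earlier results of these data known. Named were all 5 genes, their transcripts at 5% or more in either quantification and library, all Hsp90 paralogs, Smyd genes and partners, the up to 4 highest members of each other list with any at 0 counts in both libraries, and list members past 1.5-fold between libraries. The transcript share background, exon forms, shared words and promoter comparison were added after the values were seen, as was the naming of Unc45b-205, Cct6b, Hsf4, Hsf5 and Hspa1a. Alternatives were the second quantification, undivided counts, posterior means, protein-coding transcripts, other pseudocounts, scalings and filters, and leaving out each replicate.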

Additional observations from a re-analysis of the deposited data

How the results depend on the processing

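No paired analysis was possible because there was 1 group of 2 libraries. Directions of the 3 pair differences held under every alternative run, with no reversal. Unc45b over Unc45a, 2.55 on the log2 scale, was 2.97 from counts not divided by length, 2.35 from posterior mean TPM and 2.42 with a pseudocount of 1, and 2.48 to 2.63 leaving out a replicate. Hsp90aa1 over Hsp90ab1, -2.99, was -2.76 directly from reads, -3.10 from undivided counts, -2.90 from posterior means and -3.36 from protein-coding transcripts, and -3.00 to -2.97 leaving out a replicate. Smyd1 over Smyd2, 0.18, was 0.30 directly from reads, 1.32 from undivided counts, 0.66 from protein-coding transcripts, and 0.09 to 0.26 leaving out a replicate. Part of the change with undivided counts follows from its construction, since longer transcripts then count for more, and the cause of the other changes was not tested. The share of Smyd1-201, 61.9%, was 43.5% directly from reads and 55.2% to 68.7% leaving out a replicate. The number of the 5 genes past 1.5-fold between animals was 0 under all 7 alternatives. The background share was 3.87% to 4.44% with a mean count of 100 or more, 12.7% at a minimum of 10 and 34.1% at 1 count in total. Of 79 list genes, 75 or 76 stayed at 1 TPM or more. Depth limits the transcripts of Unc45a, whose 552 and 540 expected counts are spread over 10 annotated forms.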
